A study of Mus musculus with 12 samples.

Results

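Interferon-stimulated genes were followed in the left ventricle of mice under pressure overload. The set holds 44 genes, taken from the count table of 55401 genes by their gene symbols. All 44 passed the filter on low counts and are among the 15764 genes tested, so no member was lost to the filter. Oas3 passed it only through the groups where it was high, as given below. Transcript counts came from wild type (WT) mice and from mice that carry T497A, an amino acid substitution in Prkca. That gene encodes protein kinase C alpha, a kinase that calcium activates and that heart muscle expresses. Mice of each genotype had sham surgery or transverse aortic constriction (TAC), a narrowing of the aorta that makes the left ventricle pump against a higher pressure, with a 27-gauge needle at 10 weeks of age, and tissue was taken 5 weeks later, at 15 weeks. Each of the 4 groups (WT sham, WT TAC, T497A sham, T497A TAC) held 3 libraries. The strain, the zygosity and how the substitution was made are not stated in the sources used here. Nor do the labels tie libraries to animals, and p-values therefore reflect the spread among libraries, which may be technical. Cardiomyocyte is the cell type in the labels, but the tissue was left ventricle with no sorting step, and markers of macrophages, lymphocytes, fibroblasts and endothelium were detected in every library.

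Interferons are secreted proteins, and those of type I are released by cells on sensing viral or misplaced nucleic acid. Type I interferons act through a receptor that activates a complex with STAT2 and IRF9, which binds the interferon-stimulated response element (ISRE), while interferon gamma acts through IFNGR1 and IFNGR2 on targets that carry the gamma-activated site (GAS). The genes switched on this way encode antiviral effectors, nucleic acid sensors, parts of the class I antigen presentation route and the transcription factors of the pathway itself. In the heart the response has been described in macrophages, endothelium and heart muscle cells after injury. The members fall into 9 roles: the receptor chain Ifngr1 with 4 transcription factors, 4 nucleic acid sensors, 4 IFIT proteins, 2 genes of the ISG15 modifier system, 5 oligoadenylate synthetases, 6 other antiviral effectors, 5 guanylate-binding and immunity-related GTPases, 4 genes of class I antigen processing and 9 other interferon-induced genes. Ifngr1 is itself a receptor gene and not a classical target, and it is kept here because its symbol is in the set.

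Promoter sequence was available for 33 of the 44 members, matched by symbol to RefSeq windows of GRCm38.p6 that run from 250 bases before to 50 bases after each gene's start. The ISRE core, searched as GAAANNGAAA on both strands, was found in 17 of the 33 member windows (51.5%), and 3.99% of 27025 genes with a window hold it (3.44% of 32851 windows). The GAS core, searched as TTCNNNGAA, which reads the same on both strands, was found in 10 of 33 (30.3%) against 9.55% of genes and 8.30% of windows, and in 2 member windows matches of the 2 motifs overlapped. The 17 members with an ISRE match had a median log2 change after TAC of 0.53 in WT and 0.51 in T497A, and the 16 without had 0.55 and 0.51. The 10 members with a GAS match had medians of 0.50 and 0.33, and the 23 without had 0.64 and 0.59, a difference that was not tested. The 4 promoters below belong to members that passed the test in 2 or more comparisons and hold a match, and they show how the elements differ in kind and place. Each is written 5′ to 3′ on the gene's strand, from 250 bases before to 30 bases after the RefSeq start, with the motif letters in capitals. Ifit3 (chr19:34583279-34583558, plus strand) has a pair of ISRE matches on the opposite strand, 156 and 122 bases before the start. Ifit2 (chr19:34550444-34550723, plus strand) has a GAS match 241 bases before the start. Ifitm3 (chr7:141010715-141010994, minus strand) has 2 ISRE matches and a GAS match that overlaps the second of them, all just after the start. Psmb8 (chr17:34197945-34198224, plus strand) has a GAS match 97 bases before the start. A match is a description of the letters only.
Ifit3: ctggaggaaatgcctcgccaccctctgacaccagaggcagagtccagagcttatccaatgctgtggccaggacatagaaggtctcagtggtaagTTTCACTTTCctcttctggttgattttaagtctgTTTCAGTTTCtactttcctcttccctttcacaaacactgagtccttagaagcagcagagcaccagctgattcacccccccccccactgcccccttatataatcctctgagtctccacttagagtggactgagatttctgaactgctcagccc
Ifit2: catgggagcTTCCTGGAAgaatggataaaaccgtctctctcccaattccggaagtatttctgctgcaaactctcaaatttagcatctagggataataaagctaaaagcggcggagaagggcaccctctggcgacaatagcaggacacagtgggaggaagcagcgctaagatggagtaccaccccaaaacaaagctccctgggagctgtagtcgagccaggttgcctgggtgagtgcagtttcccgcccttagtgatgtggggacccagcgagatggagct
Ifitm3: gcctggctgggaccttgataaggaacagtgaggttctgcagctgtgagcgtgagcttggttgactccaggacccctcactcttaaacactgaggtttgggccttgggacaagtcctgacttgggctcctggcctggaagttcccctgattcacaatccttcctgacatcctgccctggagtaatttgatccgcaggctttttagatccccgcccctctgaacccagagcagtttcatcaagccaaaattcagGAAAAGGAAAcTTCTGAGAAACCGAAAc
Psmb8: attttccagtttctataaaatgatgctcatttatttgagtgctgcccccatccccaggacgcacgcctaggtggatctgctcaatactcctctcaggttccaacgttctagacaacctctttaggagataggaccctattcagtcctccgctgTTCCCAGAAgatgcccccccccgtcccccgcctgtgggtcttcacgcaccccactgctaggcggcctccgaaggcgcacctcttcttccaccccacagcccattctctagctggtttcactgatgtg

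Libraries held 36862004 to 46898344 counts, and variation between replicates over all genes was 17.2% (biological coefficient of variation). Levels are given as CPM, the count of a gene relative to the library total after TMM scaling. Effects are log2 fold changes ± their standard error, with 3 libraries in each group, and "called" means an adjusted p under 0.05 over all 15764 genes (edgeR quasi-likelihood test, Benjamini-Hochberg). Between 68.8% and 71.1% of the counts from 1 to 10 were even numbers in every library, so single counts were not independent, and why was not tested. If single counts were independent, a count of 0 would allow up to 0.064 to 0.0814 CPM per library, for counting error only. As they were not, the limit may be higher. Members spanned a wide range of levels: per kilobase of exon, the mean over the 12 libraries ran from 0.0669 CPM for Oas3 and 0.0964 for Mx1 to 20.8 for Ifngr1 and 65.0 for Ifitm3.

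After TAC in WT the interferon-stimulated genes moved upward as a group. Of the 44, 17 rose and 0 fell, where 12.3% of all genes tested were called higher and 12.6% lower. The median log2 change of the members was 0.54 against 0.01 over all genes, and it was positive in 43 of 44, the exception being Mx2 (-0.07 ± 0.38). All 3 TAC libraries lay above all 3 sham libraries in 27 members, as they did in 21.5% of all genes, and 22 members were higher at an unadjusted p under 0.05 (18.2% of all genes). The number that passed the test moved with single libraries: it was 5, 11 and 10 without WT sham replicate 1, 2 and 3, and 6 and 9 without WT TAC replicate 1 and 3. In bulk tissue, more cells of a type and more RNA per cell cannot be told apart.

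In T497A the members' median was 0.56 against 0.01 over all genes, and the change was positive in 44 of 44. Without T497A TAC replicate 3 this median was 0.35. With all libraries 2 members rose, Ifngr1 and Slfn2, where 0.0634% of all genes (10 genes) were called higher. At an unadjusted p under 0.05, 23 members were higher, against 5.99% of all genes. The TAC libraries lay above the sham libraries in 8 members (Ifngr1, Ifih1, Ifit3, Oas1a, Oas3, Oasl2, Rsad2 and Slfn2), against 7.71% of all genes. Averaged over both genotypes, the test called 26 members higher and 0 lower, with 11.2% of all genes called higher. This count was 14 without WT sham replicate 1, 15 without T497A sham replicate 1, WT TAC replicate 1 or T497A TAC replicate 3, and 16 without T497A sham replicate 3 or T497A TAC replicate 2. Beside the 26, the other 18 members passed in no comparison with all libraries.

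**Figure D1:**
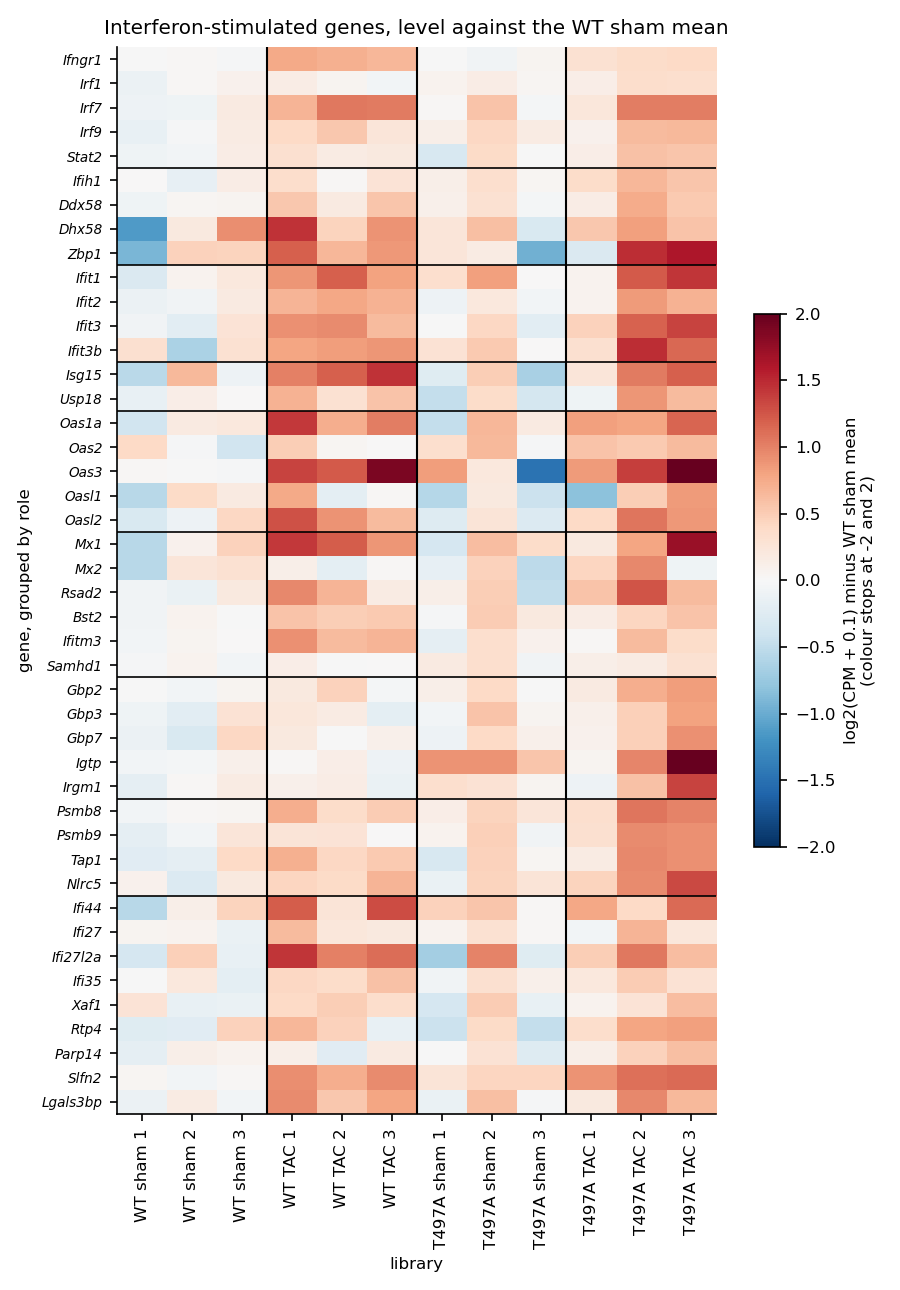
Level of each of the 44 interferon-stimulated genes (rows, grouped by role) in each of the 12 libraries (columns), as log2(CPM + 0.1) minus the mean of the 3 WT sham libraries; the colour scale stops at -2 and 2. Red is higher and blue lower than WT sham: most rows are red in the 3 WT TAC libraries and in T497A TAC replicates 2 and 3, and paler in T497A TAC replicate 1.

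Among the receptor and transcription factor genes, Ifngr1 gave the most precise measurements. It encodes the ligand-binding chain of the interferon gamma receptor (ENSMUSG00000020009.13, chromosome 10, positions 19591949 to 19610229 of GRCm38, plus strand). Ifngr1 stood at 48.1, 48.7 and 47.5 CPM in WT sham, 81.2, 79.2 and 76.5 in WT TAC, and in T497A 48.0, 45.7 and 49.9 after sham and 59.3, 62.3 and 63.5 after TAC. The 4 groups of libraries did not overlap except the 2 sham groups: T497A TAC lay above both sham groups and below every WT TAC library. Ifngr1 rose by 0.71 ± 0.06 in WT (adjusted p = 9.1e-06) and by 0.37 ± 0.06 in T497A (adjusted p = 0.0446, edgeR). Its interaction (T497A effect minus WT effect) was -0.35 ± 0.09 with a 95% interval of -0.54 to -0.16, which missed the threshold (adjusted p = 0.0615, edgeR). Of 19 alternatives the same interaction passed in 2, DESeq2 (adjusted p = 0.00818) and library totals only (adjusted p = 0.0408, edgeR). With library totals only the median interaction over all genes was itself -0.11. In the direct comparison after TAC, Ifngr1 was lower in T497A by -0.36 ± 0.06 (adjusted p = 0.00443, edgeR).

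Irf7 encodes the transcription factor that amplifies type I interferon production. Irf7 stood at 4.85, 4.92 and 5.92 CPM in WT sham, 8.42, 10.9 and 10.8 in WT TAC, and in T497A 5.28, 7.82 and 5.06 after sham and 6.11, 10.7 and 10.7 after TAC. The WT groups did not overlap, whereas T497A TAC replicate 1 lay below T497A sham replicate 2. Irf7 rose in WT by 0.94 ± 0.22 (adjusted p = 0.00787), and the change in T497A was 0.60 ± 0.22 (adjusted p = 0.313, edgeR). Irf9 encodes the DNA-binding part of the complex that reads the ISRE. It stood at 9.86, 10.7 and 12.2 CPM in WT sham, 14.4, 15.8 and 12.9 in WT TAC, and in T497A 11.9, 14.5 and 12.2 after sham and 11.6, 16.9 and 17.1 after TAC. The WT groups were separate, whereas T497A TAC replicate 1 lay below all T497A sham libraries. Irf9 was called on average over both genotypes (0.32 ± 0.11, adjusted p = 0.0445) and in neither alone. The other 2, Stat2, the partner of IRF9, and Irf1, an early target of interferon gamma, were called in no comparison, with changes of 0.23 and 0.05 in WT and 0.40 and 0.19 in T497A.

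Sensors of viral RNA rose in part. Ddx58 encodes RIG-I, which detects RNA with a triphosphate end. Ddx58 stood at 12.4, 13.5 and 13.6 CPM in WT sham, 19.2, 15.0 and 19.5 in WT TAC, and in T497A 14.2, 16.3 and 12.8 after sham and 14.6, 22.2 and 18.9 after TAC. Its rise in WT was 0.44 ± 0.15 (adjusted p = 0.0449, edgeR), without overlap between the WT groups, beside 0.37 ± 0.15 in T497A, where the groups overlapped (adjusted p = 0.352). Ifih1 encodes MDA5, a sensor of long double-stranded RNA. It stood at 11.4, 10.1 and 12.6 CPM in WT sham, 14.5, 11.5 and 13.7 in WT TAC, and in T497A 12.3, 14.2 and 11.6 after sham and 14.5, 17.9 and 16.6 after TAC. Here the T497A groups were the ones that did not overlap, and Ifih1 was called on average (0.29 ± 0.09, adjusted p = 0.0304, edgeR). Dhx58, which encodes the regulator LGP2, and Zbp1, a sensor of Z-form nucleic acid, were low (means of 0.500 and 0.357 CPM per kilobase of exon) and were not called. Their changes were 0.82 and 0.88 in WT and 0.45 and 1.36 in T497A.

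All 4 IFIT genes, which encode proteins that bind foreign RNA and block its translation and lie together on chromosome 19, were called on average, and 3 of them in WT alone. Ifit3 (ENSMUSG00000074896.3, positions 34583531 to 34588731) stood at 5.72, 5.21 and 7.32 CPM in WT sham, 11.5, 11.7 and 9.39 in WT TAC, and in T497A 5.97, 8.04 and 5.21 after sham and 8.32, 13.8 and 15.5 after TAC. TAC libraries lay above sham libraries in both genotypes. Ifit3 rose by 0.84 ± 0.23 in WT (adjusted p = 0.0168), and its change in T497A was 0.97 ± 0.23 (adjusted p = 0.134, edgeR), with an interaction interval of -0.56 to 0.82. Ifit2 (ENSMUSG00000045932.12, positions 34550694 to 34576419) stood at 16.8, 17.2 and 20.6 CPM in WT sham, 29.1, 31.1 and 29.5 in WT TAC, and in T497A 16.8, 21.1 and 17.4 after sham and 19.0, 32.9 and 29.4 after TAC. Its change was 0.72 ± 0.17 in WT (adjusted p = 0.00794) and 0.56 ± 0.17 in T497A (adjusted p = 0.221, edgeR), where TAC replicate 1 lay within the sham range. Ifit1 stood at 3.97, 5.12 and 5.66 CPM in WT sham, 9.03, 11.2 and 8.53 in WT TAC, and in T497A 6.20, 8.65 and 4.88 after sham and 5.13, 11.5 and 13.3 after TAC. The WT groups were separate, and T497A TAC spanned from within the sham range to above it. Ifit1 rose in WT by 0.97 ± 0.32 (adjusted p = 0.0491), close to the threshold, and its T497A change was 0.60 ± 0.32 (adjusted p = 0.5, edgeR). Ifit3b stood at 3.25, 1.63 and 3.22 CPM in WT sham, 4.56, 4.67 and 4.87 in WT TAC, and in T497A 3.19, 3.77 and 2.60 after sham and 3.26, 7.35 and 5.84 after TAC. Again the WT groups were separate and T497A TAC replicate 1 lay within the sham range. The averaged change of Ifit3b was 0.79 ± 0.21 (adjusted p = 0.0157, edgeR). Ifit3 and Ifit3b are near-identical copies, and how reads that fit both were counted is not given in the sources used here, so their split is uncertain. Without T497A TAC replicate 1, Ifit2 (0.76, adjusted p = 0.0369) and Ifit3 (1.19, adjusted p = 0.0369) were called in T497A too.

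The ISG15 system attaches a ubiquitin-like protein to other proteins and removes it again. Isg15, the modifier, stood at 0.785, 1.92 and 1.10 CPM in WT sham, 2.50, 2.86 and 3.43 in WT TAC, and in T497A 0.995, 1.72 and 0.726 after sham and 1.43, 2.56 and 2.85 after TAC. It rose in WT by 1.20 ± 0.38 (adjusted p = 0.0322) without overlap, and its change in T497A was 1.00 ± 0.38 (adjusted p = 0.328, edgeR) with TAC replicate 1 below the highest sham library. Usp18, the protease that removes ISG15 and also restrains the type I receptor, stood at 1.82, 2.26 and 2.06 CPM in WT sham, 3.35, 2.54 and 3.08 in WT TAC, and in T497A 1.44, 2.66 and 1.58 after sham and 1.92, 3.84 and 3.22 after TAC. The WT groups did not overlap and T497A TAC replicate 1 lay within the sham range. Usp18 was called on average (0.60 ± 0.20, adjusted p = 0.0435, edgeR) and in neither genotype alone.

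Oligoadenylate synthetases make the messenger that activates RNase L, and the OASL proteins are their relatives. Oasl2 stood at 5.52, 6.35 and 9.12 CPM in WT sham, 16.7, 12.8 and 10.6 in WT TAC, and in T497A 5.67, 8.21 and 5.63 after sham and 9.01, 14.4 and 12.6 after TAC. The TAC libraries lay above the sham libraries of the same genotype in both, with changes of 0.94 ± 0.24 in WT (adjusted p = 0.0136) and 0.89 ± 0.24 in T497A (adjusted p = 0.192, edgeR). The interaction interval of Oasl2 was -0.80 to 0.69. Oas1a stood at 0.693, 1.07 and 1.10 CPM in WT sham, 2.65, 1.62 and 2.00 in WT TAC, and in T497A 0.647, 1.55 and 1.08 after sham and 1.74, 1.69 and 2.22 after TAC. Oas1a too was separated in both genotypes, at 1.13 ± 0.33 in WT (adjusted p = 0.0215) and 0.79 ± 0.32 in T497A (adjusted p = 0.358, edgeR). Oas1a has near-identical neighbours, so its count is uncertain. Oas3, the lowest member per length, stood at 0.185, 0.179 and 0.174 CPM in WT sham, 0.614, 0.554 and 0.932 in WT TAC, and in T497A 0.398, 0.222 and 0 after sham and 0.402, 0.628 and 1.39 after TAC. Oas3 had the largest changes of the members, 1.95 ± 0.76 in WT and 1.98 ± 0.75 in T497A, with wide errors, and it was called on average (adjusted p = 0.0179, edgeR). Its raw counts were 8, 8 and 6 in WT sham and 16, 8 and 0 in T497A sham, mostly under the filter's minimum of 10. Oas3 thus entered the test only through its TAC libraries, and its changes and its call are no support for a rise of the set. Oas2 and Oasl1 were not called, at 0.16 and 0.23 in WT and 0.24 and 0.63 in T497A.

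Of the 6 other antiviral effectors, 2 rose in WT and 4 were called on average. Ifitm3 encodes a membrane protein that blocks virus entry and was the highest member per length (ENSMUSG00000025492.6, chromosome 7, positions 141009586 to 141010770, minus strand). Ifitm3 stood at 33.6, 36.4 and 35.0 CPM in WT sham, 66.1, 54.3 and 56.3 in WT TAC, and in T497A 31.0, 44.2 and 37.0 after sham and 35.4, 54.4 and 45.2 after TAC. It rose in WT by 0.75 ± 0.15 (adjusted p = 0.00351), while T497A TAC replicate 1 lay within the sham range and the change in T497A was 0.27 ± 0.15 (adjusted p = 0.535, edgeR). The interaction was -0.48 ± 0.21, with an interval of -0.95 to -0.02 that excluded 0 at an unadjusted p of 0.0432 and an adjusted p of 0.279 (edgeR). Bst2 encodes tetherin, which holds budding virus at the cell surface. Bst2 stood at 5.72, 6.30 and 5.95 CPM in WT sham, 8.99, 8.43 and 8.62 in WT TAC, and in T497A 5.87, 8.54 and 6.91 after sham and 6.67, 8.14 and 8.89 after TAC. Bst2 was separate between the WT groups and overlapped between the T497A groups. It rose in WT by 0.53 ± 0.15 (adjusted p = 0.0173) against 0.15 ± 0.15 in T497A (adjusted p = 0.762, edgeR). Rsad2 encodes viperin, an enzyme that makes a chain-terminating nucleotide. It stood at 14.8, 14.1 and 17.8 CPM in WT sham, 30.2, 24.9 and 17.3 in WT TAC, and in T497A 16.7, 21.7 and 11.0 after sham and 23.1, 37.0 and 24.0 after TAC, so WT TAC replicate 3 overlapped with WT sham while the T497A groups were separate. Rsad2 was called on average (0.70 ± 0.20, adjusted p = 0.0316, edgeR). Mx1, an antiviral GTPase, stood at 0.0923, 0.201 and 0.290 CPM in WT sham, 0.658, 0.554 and 0.419 in WT TAC, and in T497A 0.124, 0.333 and 0.264 after sham and 0.223, 0.387 and 0.834 after TAC. The WT groups did not overlap and the T497A groups did. Mx1 was also called on average (1.24 ± 0.41, adjusted p = 0.0435, edgeR), at a level near the lower end of the set. Mx2 and Samhd1, which depletes nucleotides that viruses need, were not called, and Samhd1 changed by 0.04 in each genotype with an interaction interval of -0.30 to 0.30.

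The guanylate-binding proteins and immunity-related GTPases attack the membranes of intracellular pathogens and are known mainly as targets of interferon gamma. With edgeR and all libraries no member of this role was called in any comparison, while DESeq2 called Igtp (adjusted p = 0.0258) and Irgm1 (adjusted p = 0.0457) higher in T497A after TAC, and edgeR without the filter on low counts called Gbp2 (adjusted p = 0.0409). In WT their changes were small, from 0.02 to 0.22 (median 0.07), and in T497A they ran from 0.27 to 0.85 (median 0.43). Gbp7 stood at 18.7, 16.6 and 27.3 CPM in WT sham, 23.4, 20.3 and 22.0 in WT TAC, and in T497A 18.9, 26.8 and 21.8 after sham and 21.7, 28.5 and 38.4 after TAC, and all 4 groups overlapped. Igtp (ENSMUSG00000078853.8, chromosome 11, positions 58199556 to 58207591) stood at 8.77, 8.87 and 9.87 CPM in WT sham, 9.36, 10.0 and 8.53 in WT TAC, and in T497A 17.1, 17.2 and 13.4 after sham and 9.48, 18.2 and 58.5 after TAC. Its 3 T497A TAC libraries thus spread from the WT level to the highest value of all 12, and every T497A sham library lay above every WT sham library. The TAC change of Igtp was 0.02 ± 0.55 in WT and 0.85 ± 0.54 in T497A (adjusted p = 0.607, edgeR), and without T497A TAC replicate 3 the latter was -0.21. Irgm1, named for the same single library after its values were seen, stood at 18.1, 29.0 and 49.8 CPM in T497A TAC against 17.6 to 21.5 in WT TAC. Over the 5 genes, the mean log2 level against WT sham was 0.06, 0.65 and 1.32 in T497A TAC replicates 1, 2 and 3, 0.24, 0.51 and 0.15 in T497A sham, and 0.15, 0.18 and -0.07 in WT TAC.

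Class I antigen processing cuts proteins into peptides and carries them to the endoplasmic reticulum. Psmb8, a catalytic subunit of the immunoproteasome, stood at 4.29, 4.54 and 4.59 CPM in WT sham, 7.45, 5.80 and 6.41 in WT TAC, and in T497A 4.90, 6.16 and 5.30 after sham and 5.69, 9.54 and 9.01 after TAC. It rose in WT by 0.55 ± 0.18 (adjusted p = 0.0422) without overlap, and its change in T497A was 0.57 ± 0.18 (adjusted p = 0.248, edgeR), with an interaction interval of -0.54 to 0.57. Tap1, a chain of the peptide transporter, stood at 4.96, 5.14 and 7.67 CPM in WT sham, 9.58, 7.78 and 8.41 in WT TAC, and in T497A 4.63, 8.07 and 5.96 after sham and 6.49, 11.4 and 11.1 after TAC. Nlrc5, the transactivator of class I genes, stood at 2.45, 1.90 and 2.64 CPM in WT sham, 3.16, 3.05 and 3.78 in WT TAC, and in T497A 2.09, 3.19 and 2.79 after sham and 3.17, 4.54 and 5.91 after TAC. Both were called on average, Tap1 at 0.59 ± 0.18 (adjusted p = 0.0304) and Nlrc5 at 0.64 ± 0.17 (adjusted p = 0.0163, edgeR), and in both the T497A TAC replicate 1 was the library that overlapped with sham. Psmb9, the other immunoproteasome subunit here, was not called (0.18 in WT, 0.59 in T497A). Psmb9 and Tap1 overlap at their ends on opposite strands of chromosome 17, and use of strand in counting is not given in the sources used here.

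Among the 9 other interferon-induced genes 5 rose in WT. Slfn2, a regulator of immune cell quiescence (ENSMUSG00000072620.3, chromosome 11, positions 83065112 to 83070678), was the member whose TAC effect was called in both genotypes besides Ifngr1. Slfn2 stood at 4.80, 4.51 and 4.76 CPM in WT sham, 9.03, 7.85 and 9.09 in WT TAC, and in T497A 5.62, 6.38 and 6.38 after sham and 8.84, 10.1 and 10.4 after TAC. No TAC library overlapped with a sham library, and T497A sham lay above WT sham. Its rise was 0.88 ± 0.12 in WT (adjusted p = 0.00017) and 0.68 ± 0.12 in T497A (adjusted p = 0.0497, edgeR), with an interaction interval of -0.57 to 0.15. The T497A calls of Slfn2 and Ifngr1 stood near the threshold, and under 20 alternatives Slfn2 was called in 6 and Ifngr1 in 7, with effects of 0.62 to 0.75 and 0.33 to 0.44.

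Lgals3bp, which encodes a secreted galectin-3 binding protein, stood at 19.6, 24.0 and 20.6 CPM in WT sham, 40.9, 31.1 and 36.8 in WT TAC, and in T497A 19.4, 32.3 and 21.0 after sham and 24.5, 41.8 and 33.4 after TAC. It rose in WT by 0.76 ± 0.23 (adjusted p = 0.0314), and the T497A groups overlapped (0.46 ± 0.22, adjusted p = 0.473, edgeR). Ifi27l2a, which encodes a small mitochondrial membrane protein and has close paralogues, stood at 2.31, 4.11 and 2.64 CPM in WT sham, 8.02, 6.01 and 6.48 in WT TAC, and in T497A 1.79, 5.91 and 2.46 after sham and 4.15, 6.16 and 4.56 after TAC. All WT TAC libraries were above WT sham, and the T497A groups overlapped. Ifi27l2a rose in WT by 1.17 ± 0.38 (adjusted p = 0.0431) beside 0.56 ± 0.38 in T497A (adjusted p = 0.637, edgeR), where the change was 1.21 without T497A sham replicate 2. Ifi44 stood at 2.54, 4.13 and 5.17 CPM in WT sham, 8.90, 4.53 and 9.46 in WT TAC, and in T497A 5.28, 5.60 and 3.85 after sham and 6.56, 5.03 and 8.41 after TAC. Ifi44 passed in WT (0.96 ± 0.32, adjusted p = 0.0456) although WT TAC replicate 2 overlapped with sham, and its T497A change was 0.44 ± 0.31 (adjusted p = 0.652, edgeR). Ifi35 stood at 5.36, 6.21 and 4.68 CPM in WT sham, 7.23, 7.00 and 8.16 in WT TAC, and in T497A 5.13, 6.77 and 5.79 after sham and 6.23, 7.68 and 6.60 after TAC. The groups were separate in WT and overlapped in T497A. Ifi35 rose in WT by 0.46 ± 0.15 (adjusted p = 0.0384) beside 0.21 ± 0.15 in T497A (adjusted p = 0.642, edgeR). Parp14, the member of this role with the highest CPM, which encodes an ADP-ribosyltransferase, stood at 32.3, 39.7 and 38.6 CPM in WT sham, 39.7, 31.4 and 41.8 in WT TAC, and in T497A 36.5, 44.8 and 30.8 after sham and 39.8, 50.7 and 56.0 after TAC. Its groups overlapped in both genotypes. It was not called, at 0.03 ± 0.16 in WT and 0.39 ± 0.16 in T497A. Ifi27, Xaf1 and Rtp4 were not called either, with changes of 0.33 to 0.41 in WT and 0.18 to 0.80 in T497A.

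**Figure D2:**
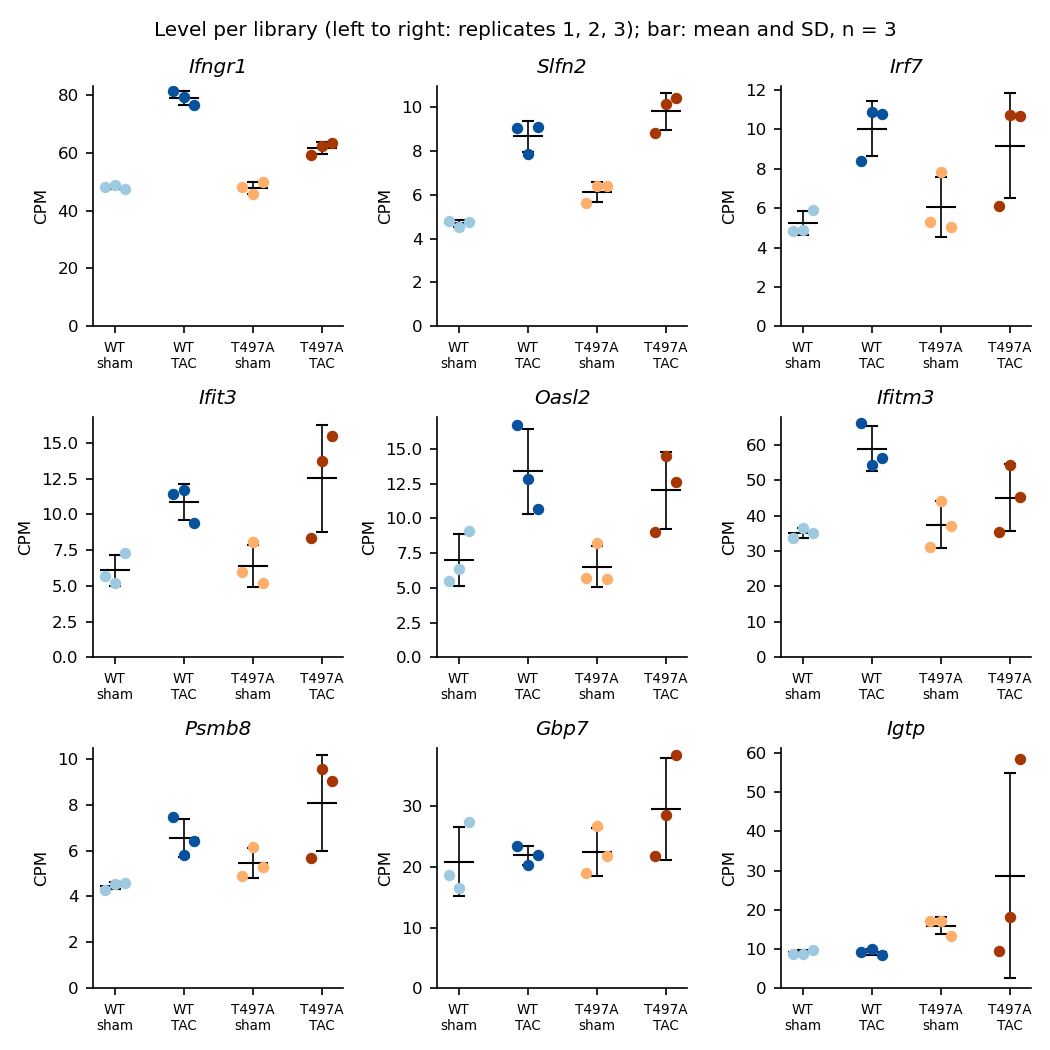
CPM of 9 members in each library (points, replicates 1 to 3 from left to right within a group), with the mean and SD of the 3 libraries of each group as bars. In Ifngr1, Slfn2, Ifit3 and Oasl2 the TAC libraries lie apart from sham in both genotypes. In the others T497A TAC replicate 1 lies below the highest T497A sham library, and in Igtp T497A TAC replicate 3 stands alone at 58.5 CPM.

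A further question of the design is whether genotype changes the effect of TAC. No member was called for the interaction, higher or lower, where 0.894% of all genes were called higher and 0.679% lower. At an unadjusted p under 0.05 there were 2 of 44 members, Ifngr1 and Ifitm3, both with the smaller effect in T497A, against 2647 of 15764 genes, 1245 of them with the lower value in T497A. DESeq2 called 1, Ifngr1. The median interaction of the members was 0.01. A p that misses the threshold does not show equal effects: the 95% interval of the interaction included 0 in 42 of 44 members, and its limits were as wide as -2.44 to 2.50 for Oas3. Of the 26 members called on average, 18 had an interval that included both 0 and minus the WT estimate. That value is a complete loss of the WT effect only if the WT estimate is taken as exact. In 7 (Ifngr1, Ifit2, Ifit3, Oasl2, Psmb8, Nlrc5 and Slfn2) the interval did not reach it. The 95% interval of the T497A effect itself excluded 0 for some of the 18, such as Isg15 (0.18 to 1.82). For others, such as Ifit1 (-0.10 to 1.31), it did not.

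The size of the response was set beside that of the other genes that TAC raised, as a description. The effect was larger in T497A than in WT in 23 of 44 members (52.3%), against 49.8% of all genes tested. Of the 1769 genes called higher on average, it was larger in T497A in 166 (9.38%), with medians of 0.78 in WT and 0.32 in T497A. The 26 members called on average were selected in the same way from the same libraries, and in these the medians were 0.76 in WT and 0.60 in T497A, and the effect was larger in T497A in 8 of 26 (30.8%), such as Ifit3 and Nlrc5. Among the 18 members not called on average, the medians were 0.17 in WT and 0.41 in T497A. In 15 of these 18 (83.3%) the effect was larger in T497A.

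**Figure D3:**
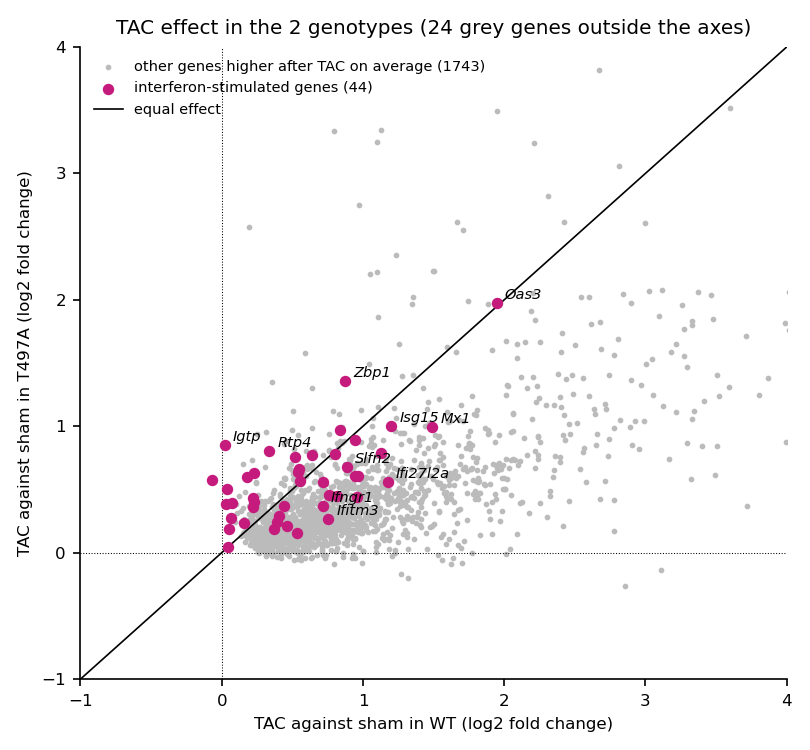
Log2 fold change after TAC in WT (x axis) and in T497A (y axis) for the 44 interferon-stimulated genes (large points) and for the other 1743 genes called higher on average over both genotypes (small grey points, 24 of them outside the axes); the line marks equal effects. The grey genes lie mostly below the line, and the interferon-stimulated genes lie on both sides of it, 23 of 44 above.

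Single libraries carried much of this comparison. T497A TAC replicate 1 was the lowest of its group in 40 of 44 members (90.9%), as it was in 35% of all genes, and T497A sham replicate 2 was the highest of its group in 40 of 44 (90.9%), against 35.6% of all genes. T497A TAC replicate 1 exceeded every T497A sham library in 9 members (20.5%, against 25.6% of all genes), replicate 2 in 38 (86.4%, against 31.2%) and replicate 3 in 37 (84.1%, against 25.5%). In WT the same count was 38, 31 and 30 for TAC replicates 1, 2 and 3, against 36.6%, 35.4% and 36.8% of all genes. The mean log2 level of the 44 against WT sham was 0.25, 0.82 and 0.90 in the T497A TAC replicates, 0.70, 0.49 and 0.52 in the WT TAC replicates, and 0.45 in T497A sham replicate 2 beside -0.00 and -0.11 in the other T497A sham libraries. Without T497A TAC replicate 1 the members' median in T497A was 0.71 and the effect was larger in T497A in 68.2% of them. Without T497A sham replicate 2 these values were 0.70 and 65.9%, and without T497A TAC replicate 3 they were 0.35 and 38.6%. Over 19 alternatives the percentage ran from 38.6 to 68.2 for the members and from 5.17 to 17.5 for the genes called higher on average.

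Between genotypes no member was called after sham surgery, where 0.0254% of all genes were called higher. At an unadjusted p under 0.05 there was 1 member, against 477 of 15764 genes. The members' median difference was 0.14 against 0.00 over all genes, and it was positive in 36 of 44 (81.8%, against 50.8% of all genes). This median was -0.01 without T497A sham replicate 2 and 0.08 without WT sham replicate 1. All 3 T497A libraries lay above WT in 3 members, Igtp, Psmb8 and Slfn2, against 4.23% of all genes. After TAC, 0 members were higher in T497A and 1, Ifngr1, was lower, where 4.64% of all genes were called higher and 4.06% lower. At an unadjusted p under 0.05, 7 members were higher (15.9%, against 12.6% of all genes). These comparisons share their TAC or sham libraries with the TAC effects above. The T497A TAC libraries lay above all WT TAC libraries in Ifih1, Oas2 and Psmb9 (3 members, against 14.4% of all genes) and below them in Ifngr1 (1 member, against 13.6%). Igtp differed by 1.63 ± 0.55 after TAC (adjusted p = 0.113, edgeR). Without T497A TAC replicate 1, Igtp (2.05), Irgm1 (0.98) and Gbp2 (0.57) were called higher in T497A after TAC, at adjusted p of 0.0283, 0.0216 and 0.0437 (edgeR).

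The rest of the pathway was followed in lists made by known role, with earlier results of these data known. Over all genes tested, 12.3% were called higher and 12.6% lower in WT, and 11.2% were called higher on average. Of 12 interferon genes, 10 had 0 counts in every library, and the other two, Ifnab and Ifng, had 5 counts in all 12 libraries together, too few to compare groups. Of 9 receptor chains and kinases, 1 rose and 3 fell in WT and none was called in T497A. Ifnar1, a chain of the type I receptor, rose in WT by 0.29 ± 0.10 (adjusted p = 0.0433, edgeR) and was 0.25 ± 0.10 in T497A. Il10rb, shared by the lambda interferon and interleukin-10 receptors, fell by 0.41 on the log2 scale in WT, and Ifngr2, the partner chain of IFNGR1, fell by 0.30, while Ifngr1 itself rose. Of 14 tested genes of nucleic acid sensing and its signalling 2 rose in WT and 5 on average, among them Irf5 (0.89 ± 0.19), Tlr7 (0.60 ± 0.15) and Aim2 (0.81 ± 0.21). Of 7 other regulators of the pathway 1 rose in WT and 2 on average, Trim30a (0.47 ± 0.10) and Irf8 (0.49 ± 0.13), and Pias1 was not called (-0.15 ± 0.06).

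A further 41 known targets outside the set were also followed. In WT 9 rose and 1 fell, in T497A none was called, and on average 15 rose and 1 fell, with medians of 0.26 in WT and 0.34 in T497A. Of all genes tested, 12.3% were called higher in WT and 11.2% on average. Ifi203 changed by 0.30 ± 0.13 in WT and 0.68 ± 0.13 in T497A, and Psmb10, the third inducible proteasome subunit, by 0.66 ± 0.15 and 0.34 ± 0.15. Both were called on average (adjusted p = 0.00212 and 0.00354, edgeR). Ifitm2, the neighbour of Ifitm3, was the single gene of the 41 called for the interaction, and its values are given among the results for a closer look.

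Markers of macrophages and lymphocytes moved in the same libraries. The 15 tested macrophage and monocyte markers had medians of 0.94 in WT (12 rose) and 0.38 in T497A (1 rose, Ctss), and the 12 tested lymphocyte markers 0.78 (1 rose) and 0.58 (none called). Of all genes tested, 12.3% were called higher in WT and 0.0634% in T497A. The lymphocyte list also holds Ptprc, which other leukocytes express, so its values do not stand for lymphocytes alone. The summed level of the 16 macrophage markers was 199 to 242 CPM in WT sham, 227 to 289 in T497A sham, 342 to 437 in WT TAC and 289 to 369 in T497A TAC, with Ly6c2 and Plac8 each at 0 in 1 T497A sham library. Summed lymphocyte markers stood at 8.01 to 10.0 CPM in WT sham, 8.76 to 14.7 in T497A sham, 12.2 to 14.5 in WT TAC and 15.1 to 19.0 in T497A TAC, and 7 of the 15 were at 0 in at least 1 library, among them Cd3e, Cd3d, Cd8a and Gzma. Fibroblast markers had medians of 1.35 and 0.51, cardiomyocyte markers -0.57 and -0.22, and endothelial markers 0.08 and 0.08, in WT and T497A. T497A sham replicate 2 was the highest and T497A TAC replicate 1 the lowest of its group in the mean of the macrophage markers as well (0.56 and 0.38 against WT sham). T497A sham replicate 2 was also the highest of its group for lymphocyte (0.74), fibroblast (0.39) and endothelial markers (0.32), and the lowest for cardiomyocyte markers (-0.14). For fibroblast and endothelial markers the lowest T497A TAC library was replicate 3 (0.43 and -0.18). For the lymphocyte markers the order of the T497A TAC libraries depended on the measure: replicate 3 was lowest in mean log2 level (1.01, 1.22 and 0.88 in replicates 1, 2 and 3) and replicate 1 in summed CPM (15.1, 19.0 and 17.5). The 8 dendritic cell markers had medians of 0.48 in WT (1 rose) and 0.01 in T497A (none called). The 3 tested of 7 neutrophil markers had medians of 1.09 and 0.21 (none called). In T497A, the mean of the dendritic markers was highest in sham replicate 3 (0.65) and lowest in TAC replicate 2 (0.02). That of the neutrophil markers was highest in TAC replicate 1 (1.57). The part of these cells in the members' changes was not tested.

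**Figure D4:**
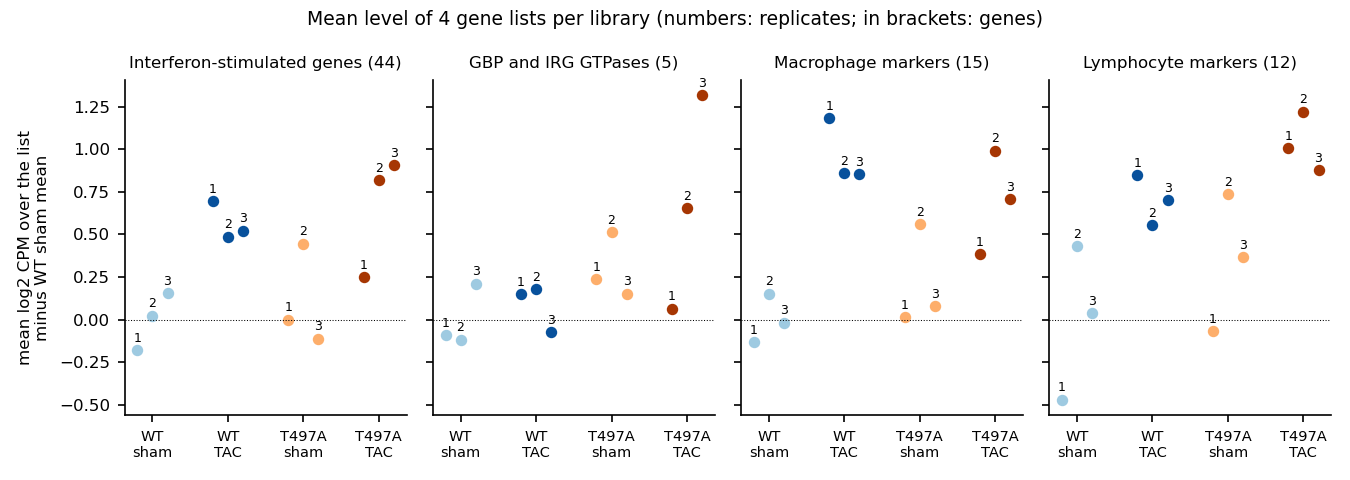
Mean log2 CPM over 4 gene lists in each library, minus the WT sham mean (points, labelled with the replicate number; the number of genes is in brackets). All 4 lists rank the T497A sham replicates with 2 on top. All but the lymphocyte markers rank the T497A TAC replicates with 1 at the bottom, and the GBP and IRG GTPases stand highest in T497A TAC replicate 3, at 1.32.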

How the data were processed

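RNA was extracted from left ventricle and sequenced single-end for 12 libraries, per the labels' protocols. What the authors deposited is a table of raw read counts per gene. The submitters' processing notes name mm10, limma 3.50.3, Subread 1.6.3, featureCounts, STAR 2.7.3a and Trim Galore 0.6.4. Order, settings, annotation release, strand use and the treatment of reads with several matches were not stated in the sources used here. Groups came from the sample titles. Since every title has the same replicate number, replicate numbers here follow accession order and pair nothing. A second number in each title, above 100 in every T497A TAC library, is not explained by the labels. All libraries share 1 batch date.

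Genes kept by filterByExpr (minimum count 10; 15764 of 55401) were fitted with edgeR 4.0.16 in R 4.3.3: TMM factors, robust glmQLFit and glmQLFTest in 1 model over the 4 groups, Benjamini-Hochberg adjustment over all genes tested and a threshold of 0.05. The comparisons were TAC in each genotype, their difference (interaction), their average, and genotype after each surgery. Standard errors were obtained as |log2 fold change| over the root of F, and intervals use the test's degrees of freedom. Replicate pairs differed by a chi-square per degree of freedom of 23.2 to 63.6, so none was a copy. An exact permutation of 3 against 3 libraries cannot go below p = 0.1 and was not used. The fit was tested on simulated data. Exon lengths and positions came from GENCODE vM21 on GRCm38. Alternatives were DESeq2 1.42.0, limma-voom (limma 3.58.1), other scaling, no filter, a term for the title number, subsets of libraries and each library left out.

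The 44 members, the roles and the pathway and marker lists were chosen with earlier results of these data known, so none is independent support. Values in every library are given for each member called in any comparison, the member with the highest mean CPM of each role and, in a role with none called, the one with the largest averaged effect. At most 3 genes with the smallest averaged p are named per pathway list, besides those said to be chosen after their values were seen.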

Additional observations from a re-analysis of the deposited data

Results flagged for a closer look

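Ifitm2 stood out because its TAC effect differed between the genotypes by a test of the difference itself. Ifitm2 encodes a relative of Ifitm3 that also blocks virus entry. How reads that fit both genes, if any, were counted is not given in the sources used here. It stood at 13.1, 13.4 and 12.7 CPM in WT sham, 21.4, 22.3 and 25.1 in WT TAC, and in T497A 14.2, 16.5 and 14.9 after sham and 14.1, 14.8 and 17.1 after TAC. Every WT TAC library lay above all other libraries, and the T497A groups overlapped. The change after TAC was 0.81 ± 0.10 in WT (adjusted p = 8.65e-05) and 0.01 ± 0.10 in T497A (adjusted p = 0.98, edgeR). The interaction was -0.80 ± 0.14 (adjusted p = 0.0195, edgeR). After TAC, Ifitm2 was lower in T497A by -0.58 ± 0.10 (adjusted p = 0.00423, edgeR).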

How the results depend on the processing

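No paired analysis was possible because all titles carry the same replicate number. No result changed direction past the threshold. For TAC in T497A, the 2 members called became 4 with DESeq2, 0 with limma-voom, 1 with RLE size factors, 6 without the filter, 0 with a term for the title number and 0 with the libraries compared alone. Among 44 members the interaction count of 0 became 1 with DESeq2 and 1 with library totals only, both Ifngr1. For T497A after TAC, the 1 member called became 3 with DESeq2 (Ifngr1 lower, Igtp and Irgm1 higher) and 3 without the filter (Ifngr1 and Ifitm3 lower, Gbp2 higher). The averaged count of 26 became 17 with the title-number term. Library totals alone moved the median of all genes from 0.01 to 0.20 in WT and from 0.01 to 0.08 in T497A, so the members' medians there, 0.73 and 0.63, are to be read against those. Why these counts moved was not tested, except that subsets hold fewer libraries. In all, 58 of 69 group results under these settings stayed within the bounds used for a move (1.5 times for a count, 0.25 for a median). These bounds are wide: the 17 members called for TAC in WT became 13 with limma-voom or the title-number term, 20 with DESeq2 and 25 with library totals only. None of these counted as a move. With single libraries left out, 84 group results stayed within the bounds and 24 moved.

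With each library left out in turn, the count called ranged from 5 to 17 for TAC in WT, 0 to 4 for TAC in T497A, 14 to 31 for the average, 1 to 4 for T497A after TAC, and stayed at 0 for the interaction and for T497A after sham. Medians ranged from 0.46 to 0.59 in WT, 0.35 to 0.71 in T497A and -0.13 to 0.16 for the interaction. The T497A count was 4 without T497A TAC replicate 1, 2 without WT TAC replicate 2 and 0 without any other. The averaged count was 14 to 16 without WT sham 1, T497A sham 1 or 3, WT TAC 1, or T497A TAC 2 or 3. T497A after TAC gave 4 without T497A TAC 1 and 2 without T497A TAC 2. At this depth, members near the floor such as Oas3 and Mx1 limit what an interaction could show.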
